A study of Mus musculus with 8 samples.

Results

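The odorant receptor genes with symbols from Olfr1417 to Olfr1505 lie together in a cluster on mouse chromosome 19. A gene was included when its symbol in the deposited table ran from Olfr1417 to Olfr1505 by its number, with no pseudogene suffix. This rule gave 60 genes of 21765 in the table, beside 1030 other genes whose symbols are Olfr and a number. The RefSeq annotation of GRCm38.p6 placed all 60 on chromosome 19, between positions 11828077 and 13919972. The widest gaps between neighbouring gene models were 250.9 kb after Olfr1441, 177.9 kb after Olfr1443 and 138.9 kb after Olfr1420, against a median gap of 22.1 kb.

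The study sequenced RNA from polysomes of the mouse main olfactory epithelium, in 8 libraries from 4 lysates. WT mice carried either Mex3a flox/flox or Mex3a flox/+ without Cre, and cKO mice carried Mex3a flox/flox with Cre, so floxed Mex3a was present in both genotypes. Tissue was exposed to 100 µg/mL cycloheximide at dissection, which holds ribosomes on their transcripts. Of about 42 fractions of 350 µL along a sucrose gradient, fractions 27 to 34 were pooled as early (lighter) polysomes and fractions 35 to 42 as late (heavier) polysomes, with 50 µL taken from each fraction. Each genotype gave early and late libraries from 2 lysates, so there were 4 groups of 2 libraries. The ages of the mice and the number of mice per lysate are not given in the sources used here. The design text of the series describes sorted cells of transgenic mice, while the labels of these libraries name whole tissue and only the Mex3a alleles and Cre. Nothing states that the lysates came from separate mice, so p-values measure the spread between these libraries, which may be technical.

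Each mature olfactory sensory neuron expresses a single odorant receptor gene, from a single allele, and the choice is made among clusters spread over many chromosomes. The receptor is a G protein-coupled receptor of the ciliary membrane. It signals through the G protein subunit Gnal, the adenylyl cyclase Adcy3 and a cyclic nucleotide-gated channel built with Cnga2, and chaperones such as Rtp1 and Rtp2 carry it to the surface. Omp, a marker of these mature neurons, was at 2439 to 5393 TPM in every library. The level of a receptor transcript in polysomes of whole tissue combines the number of neurons that chose the gene, the RNA in each and the part of it on polysomes. Receptors of class II, to which the families described here belong, are grouped by sequence similarity into MOR families.

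Neighbouring genes in this cluster are near-copies of each other to very different degrees, which bears on how reads can be assigned. Coding sequences were available for 59 of the 60 genes (GENCODE M21, GRCm38) and ranged from 924 to 1080 nt. Of the 1711 pairs, 18 were identical at 90% or more of aligned positions and 10 at 95% or more. The median identity was 69.5% within families and 59.4% between families. The opening 120 coding bases are shown for Olfr1442 and Olfr1443, each the other's nearest relative here, because results below involve them, and for the closer pair Olfr1471 and Olfr1474, because it shows the limit of read assignment. Capitals mark the bases that differ within a pair.
Olfr1442: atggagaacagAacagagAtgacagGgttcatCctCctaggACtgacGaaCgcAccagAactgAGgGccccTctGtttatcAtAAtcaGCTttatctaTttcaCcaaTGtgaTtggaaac
Olfr1443: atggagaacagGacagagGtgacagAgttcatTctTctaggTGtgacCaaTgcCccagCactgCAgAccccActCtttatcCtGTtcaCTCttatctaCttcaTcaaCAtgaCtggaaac
Olfr1471: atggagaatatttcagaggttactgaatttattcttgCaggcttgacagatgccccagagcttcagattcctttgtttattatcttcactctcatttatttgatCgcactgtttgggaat
Olfr1474: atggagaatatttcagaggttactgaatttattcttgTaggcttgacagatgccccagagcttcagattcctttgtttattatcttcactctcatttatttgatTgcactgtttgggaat
Olfr1442 and Olfr1443 differed at 27 of these 120 bases and were 85.9% identical over the whole coding sequence, with a longest shared run of 66 nt. Olfr1471 and Olfr1474 differed at 2 of the 120 bases and were 97.1% identical in all, with a longest shared run of 128 nt. The most identical pair was Olfr1502 and Olfr1505 at 97.5%, and Olfr1472 and Olfr1475 were 96.9% identical. The authors' handling of reads that fit more than 1 gene is not given in the sources used here, so values of such close pairs are uncertain.

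All 60 genes gave signal, but at low levels. Values are TPM (transcripts per 1000000), which are divided by transcript length to allow comparison between genes. That comparison depends on the length used, which matched the summed exon length in GENCODE M21 for 15 of the 60. For Olfr1450 it was 978 nt, against 3113 nt in GENCODE M21. The mean TPM over the 8 libraries ranged from 0.0896 for Olfr1436 to 5.46 for Olfr1440, with a median of 1.41 over the 60 genes. Of the 60, 52 were above 0 in every library. Whole reads were inferred from the steps of the TPM values, except for Olfr1475, above 0 in 1 library, where the GENCODE M21 length was used. They numbered 880 to 2001 per library on all 60 genes together, out of 7776792 to 12771079 reads on all genes. The reads behind a single gene, summed over the 8 libraries, ranged from 3 to 1403, and these low numbers limit the precision of each value. The sum over the 60 genes was 90.6 to 128.3 TPM per library, which was 4.06% to 4.53% of the TPM of all Olfr genes.

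Olfr1440, the only gene of family MOR215 beside the neighbouring Olfr1441, had the highest mean level. Its TPM was 4.60 and 5.38 in WT early against 5.43 and 4.54 in late libraries, with cKO at 6.21 and 7.36 in early and 4.16 and 5.99 in late libraries. The cKO early libraries were the highest, and the other 3 groups overlapped. Olfr1420, of family MOR266, followed with a mean of 5.08 TPM, ranging from 2.57 in WT late replicate 1 to 7.27 in cKO early replicate 2. Olfr1463 had a mean of 4.98 TPM and a range of 3.28 to 5.84, and Olfr1428 a mean of 4.97 TPM and a range of 3.35 to 6.80. These ranges overlap, so the order of the 4 highest genes does not stand beyond the spread between libraries.

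The next 6 genes by mean level were Olfr1448 (4.28 TPM), Olfr1426 (4.02 TPM), Olfr1491 (3.92 TPM), Olfr1437 (3.85 TPM), Olfr1417 (3.56 TPM) and Olfr1500 (3.45 TPM). Ranked by inferred reads instead of TPM, 7 of the 10 highest genes were the same. At the low end, Olfr1436 had 3 reads in 2 libraries and Olfr1475 had 3 reads in 1 library. Both have a near-identical neighbour: Olfr1436 is 95.4% identical to Olfr1437, and Olfr1475 is 96.9% identical to Olfr1472, which had 24 reads in all. Olfr1437 had 499 reads, so the members of that close pair were counted at very unequal levels. Reads could come from 3908 nt of Olfr1437 but from only 948 nt of Olfr1436, no more than its coding sequence. In mean TPM, which is divided by length, Olfr1437 was at 3.85 against 0.0896 for Olfr1436. The cause of the unequal counts was not tested.

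**Figure D1:**
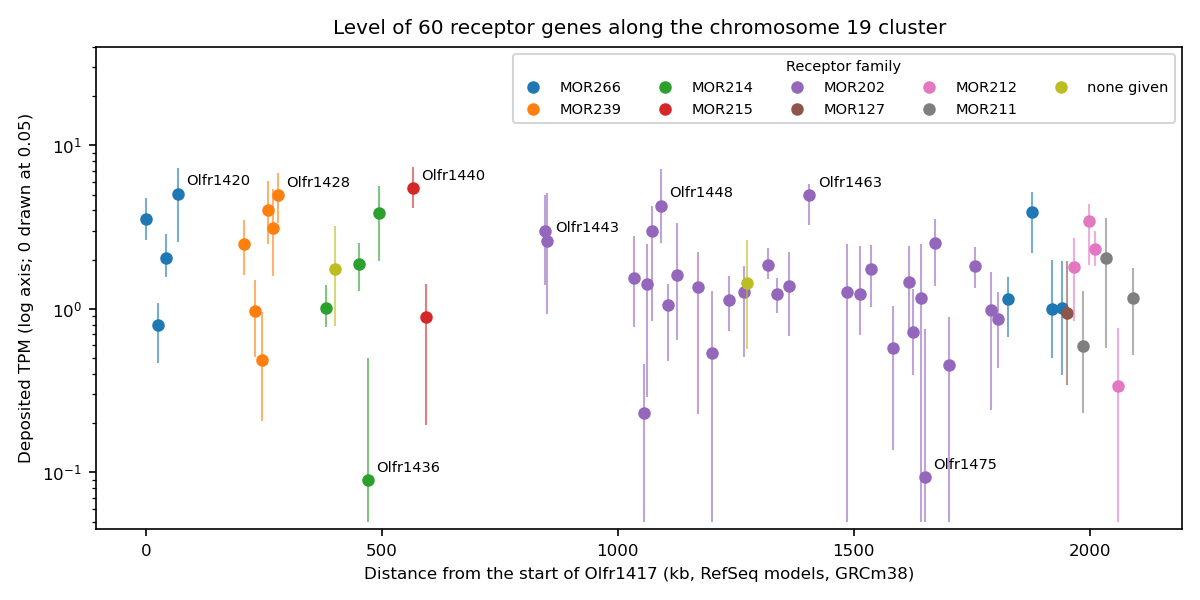
Mean deposited TPM of each of the 60 genes (points, log axis) against its distance in kb from the start of Olfr1417, coloured by receptor family, with lines from the lowest to the highest of the 8 libraries. The 3 genes with the highest mean, Olfr1440, Olfr1420 and Olfr1463, lie in different stretches of the cluster and families, and Olfr1436 and Olfr1475 are near 0.

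The cluster holds 8 families by the synonyms in RefSeq, with none given for Olfr1432 and Olfr1458. MOR202 is the largest, with 30 genes between 846.1 and 1805.0 kb from the start of the cluster and 42.7% of the summed mean TPM of the 60 genes. Its genes ranged from 0.0938 TPM for Olfr1475 to 4.98 TPM for Olfr1463, with a median of 1.31 TPM. The 6 MOR239 genes, packed between 207.7 and 280.5 kb, held 14.5% with a median of 2.80 TPM. The 8 MOR266 genes lie in separate stretches, 4 of them from 0 to 67.9 kb and 4 from 1826.4 to 1940.3 kb, and held 16.7% with a median of 1.59 TPM. MOR212 (4 genes, 7.13%), MOR214 (4 genes, 6.15%), MOR215 (2 genes, 5.72%), MOR211 (3 genes, 3.44%) and MOR127 (Olfr1496 alone, 0.854%) made up most of the rest.

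Beside other receptor clusters the level was unexceptional. The median of the mean TPM was 1.41 over the 60 genes, 1.5 over the 108 genes from Olfr829 to Olfr986, 1.24 over the 239 genes from Olfr987 to Olfr1318, and 1.88 over all 1030 other Olfr genes. The highest mean among those 1030 genes was 30.8 TPM, against 5.46 TPM here. The share of genes above 0 in all 8 libraries was 86.7% here and 86.9% among the other Olfr genes.

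RefSeq start sites bear on where promoters of these genes can be read. A RefSeq window of 250 bases before and 50 bases after the annotated start was found for 56 of the 60 genes, but in 48 of these the annotated start is the ATG of the coding sequence, so that the window does not mark a transcription start. Transcript lengths implied by the TPM steps, or taken from GENCODE M21 for Olfr1475, were 924 to 8951 nt with a median of 2222.5 nt. Of the 60, 15 matched the summed exon length in GENCODE M21, Olfr1475 by construction. Only 4 windows had a start other than an ATG that lay within 200 nt of the GENCODE 5′ end. Sequence before the GENCODE 5′ end is shown for Olfr1443, at chr19:12677916-12678111 on the plus strand, since its levels differed most between genotypes, and for Olfr1426, at chr19:12092014-12092097 on the minus strand, since it is among the genes lower in late polysomes (GRCm38.p6, RefSeq windows).
Olfr1443: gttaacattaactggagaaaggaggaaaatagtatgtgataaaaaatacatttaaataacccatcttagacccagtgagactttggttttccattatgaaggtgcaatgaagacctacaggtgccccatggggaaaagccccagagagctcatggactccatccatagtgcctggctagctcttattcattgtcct
Olfr1426: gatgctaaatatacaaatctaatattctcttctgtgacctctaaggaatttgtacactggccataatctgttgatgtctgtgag
The motif TAATTA, a homeodomain core of the kind bound by Lhx2, was searched on both strands of the whole 300-base windows. It was in 13 of 56 windows (23.2%), in 18.4% of 888 windows of other Olfr genes and in 5.29% of 32851 windows of all genes. The core of sites bound by Ebf factors, TCCC and GGGA around 2 unspecified bases, was in 0 of 56 windows, in 0.563% of those of other Olfr genes and in 0.904% of all. Neither motif was in the windows of Olfr1443 and Olfr1426. Since most windows end just inside the coding sequence, these shares describe the windows and not promoters.

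Late polysomes were compared with early polysomes to ask where on the gradient the receptor transcripts sat. Most of the changes found were towards lower levels in late polysomes. Tests used log2(scaled TPM + 1), with limma and Benjamini-Hochberg adjustment over the 16097 genes with a mean TPM of at least 1. Of the 60 genes, 43 passed that filter and the other 17 were not tested. Over both genotypes, 11 of the 43 passed adjusted p 0.05, with 10 lower and 1 higher in late polysomes, which is 25.6% of those tested. Among all genes tested, 68.9% passed, with 34.6% lower and 34.3% higher. The median change of the 43 genes was -0.17, against -0.011 over all genes tested, and it was -0.01 with quantile normalization.

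Summed over the 60 genes, scaled TPM in WT was 124.6 ± 8.65 in early against 105.3 ± 4.16 in late libraries, and in cKO it was 120.7 ± 8.96 against 91.4 ± 3.43 (SD, n = 2). The ratio of late to early sums was 0.914 and 0.783 in the WT lysates and 0.779 and 0.739 in the cKO lysates. All 4 ratios were below 1. Markers of cell types also differed between early and late polysomes. The 5 sustentacular (supporting cell) markers summed to 6448 to 7776 TPM in early and 10735 to 12409 TPM in late libraries. Of these 5, 4 were called higher and 1 lower. The 7 markers of mature sensory neurons, Omp among them, summed to 10052 to 12216 TPM in early and 6885 to 8419 TPM in late libraries, while their median log2 change was 0.20, with 4 called higher and 3 lower. The part of these shifts in the receptor values was not tested.

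Olfr1447, a MOR202 receptor, had the largest decrease. Its TPM was 4.06 and 4.26 in WT early against 3.58 and 2.69 in late libraries, with cKO at 3.03 and 3.89 in early and 1.45 and 0.843 in late libraries. Both cKO late libraries were below all 6 others, while WT late and cKO early overlapped. The change over both genotypes was -0.78 (SE 0.17, adjusted p = 0.00361 by limma), and late was lower in 4 of 4 lysates. Its neighbour Olfr1446 is 95.2% identical to it in coding sequence.

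Olfr1442, also of MOR202, was lower in late polysomes of each lysate. Its TPM was 4.65 and 4.95 in WT early against 3.24 and 2.51 in late libraries, with cKO at 2.43 and 3.12 in early and 1.41 and 1.69 in late libraries. Within each genotype the early and late values did not overlap. The change was -0.66 (SE 0.15, adjusted p = 0.00464 by limma). By limma it was the only gene of the 43 that passed in WT alone (-0.67, adjusted p = 0.0289), in cKO alone (-0.65, adjusted p = 0.0303) and over both, while by voom Olfr1427 and Olfr1448 also passed all of these. The call of Olfr1442 within WT was lost in 4 of 17 alternatives, without WT early replicate 1 (adjusted p = 0.0742), WT early replicate 2 (0.126) or WT late replicate 2 (0.152) among them. Within cKO it was lost in 6 of 17, without cKO early replicate 2 (0.168), cKO late replicate 1 (0.0937) or cKO late replicate 2 (0.0572) among them.

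Olfr1448, in the same family and next to Olfr1447 by symbol number, had TPM of 4.27 and 4.41 in WT early against 2.53 and 3.55 in late libraries, with cKO at 5.26 and 7.16 in early and 3.19 and 3.89 in late libraries. All 4 late libraries were below all 4 early ones. The change was -0.63 (SE 0.15, adjusted p = 0.00590 by limma). On scaled TPM, such a complete separation was seen for 4 of the 43 genes, all lower in late (Olfr1426, Olfr1448, Olfr1457 and Olfr1497), against 62.5% of all genes tested in either direction and 30.9% lower in late. Of these 4, Olfr1457 (-0.43, adjusted p = 0.0789 by limma) and Olfr1497 (-0.48, adjusted p = 0.0660) did not pass the test. In TPM as deposited, the early and late libraries of these genes other than Olfr1448 overlapped. Olfr1426, Olfr1457 and Olfr1497 are named for this separation after their values were seen.

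Olfr1427 and Olfr1458 complete the 5 largest decreases. Olfr1427, of MOR239, went from 3.74 and 5.38 to 3.64 and 2.15 TPM in WT and from 2.96 and 3.41 to 2.04 and 1.58 TPM in cKO libraries. Its change was -0.63 (SE 0.19, adjusted p = 0.0155 by limma). Olfr1458, for which no family is given, had 1.62 and 1.20 TPM in WT early and 1.48 and 1.08 TPM in WT late libraries, which overlapped. In cKO it had 2.64 and 2.26 TPM in early and 0.571 and 0.775 TPM in late libraries, with 4 reads in each cKO late library. Late minus early was -0.13 and -0.15 in the WT lysates and -1.26 and -0.97 in the cKO lysates. This larger decrease in cKO did not pass when tested as an interaction, as given below. Over both genotypes its change was -0.63 (SE 0.18, adjusted p = 0.0127 by limma).

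The other 5 genes called lower over both genotypes were Olfr1420, Olfr1426, Olfr1428, Olfr1467 and Olfr1500, with changes from -0.40 to -0.57. With Olfr1426, Olfr1427 and Olfr1428, 3 of the 4 MOR239 genes tested were called lower, and all 4 had negative changes with a median of -0.47. Among all genes tested, 34.6% were called lower. Within WT 0 of these 4 MOR239 genes were called, and within cKO 1. The calls of Olfr1426 and Olfr1428 did not hold in every alternative, where their changes ran from -0.37 to -0.65 and from -0.29 to -0.59. In MOR202, 5 of 22 genes tested were called, 4 lower and Olfr1444 higher, with a median of -0.17. In MOR266, 1 of 6 was called (Olfr1420) and the median was 0.01. No family was compared with another by a test.

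Olfr1444, a MOR202 gene whose nearest relative here is only 70.2% identical, was the single gene called higher in late polysomes. Its TPM was 1.41 and 0.989 in WT early against 1.5 and 2.78 in late libraries, with cKO at 0.777 and 0.962 in early and 2.02 and 1.96 in late libraries. The cKO groups did not overlap, and WT late replicate 1 at 1.5 TPM was close to WT early replicate 1 at 1.41 TPM. The change was 0.51 (SE 0.20, adjusted p = 0.0447 by limma), from 7 to 23 reads per library.

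**Figure D2:**
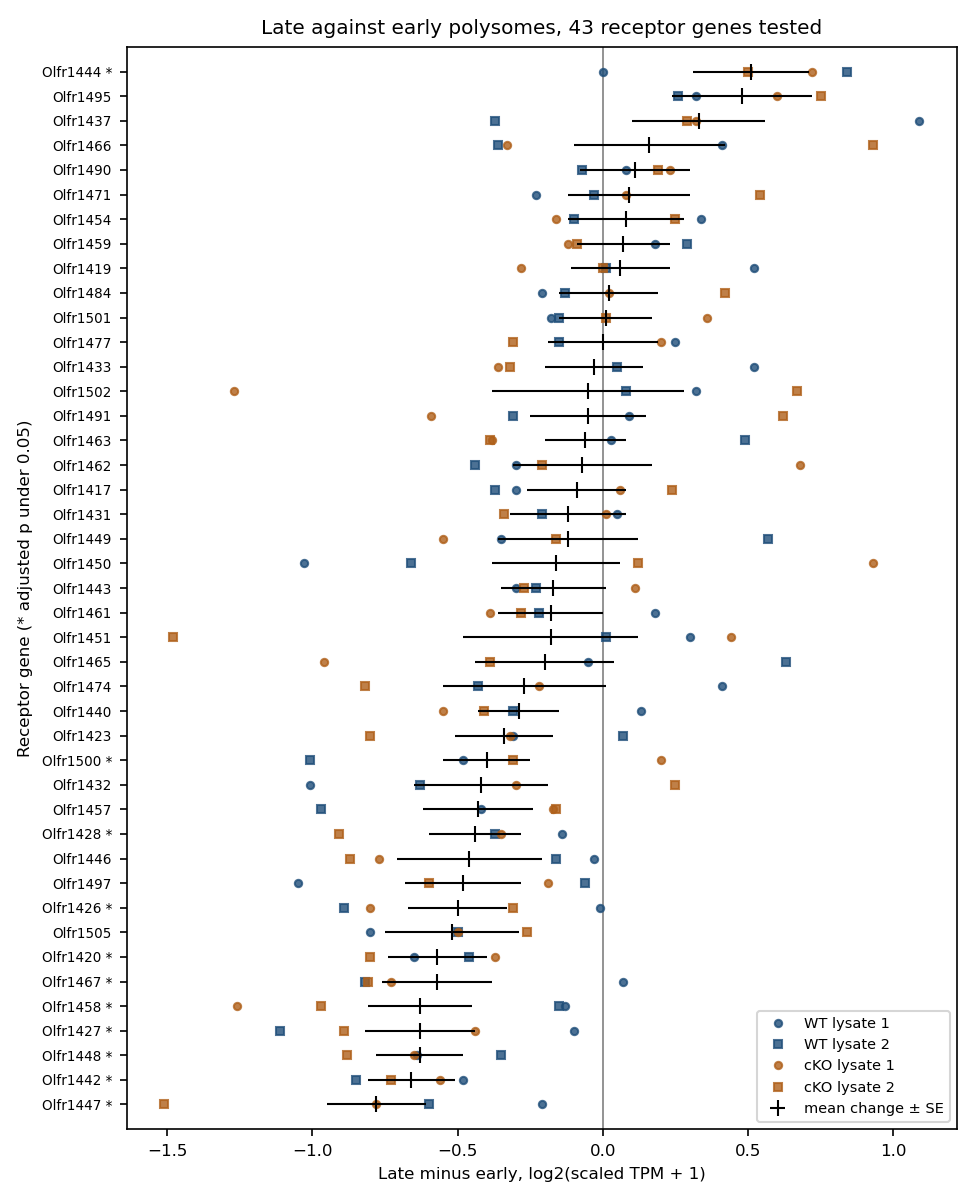
Late minus early difference in log2(scaled TPM + 1) for each of the 43 genes tested, with 1 point per lysate and the mean change ± SE from limma as a black bar; an asterisk marks adjusted p under 0.05. Most bars lie left of 0, with Olfr1447 lowest at -0.78, and Olfr1444 is the only marked gene to the right.

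Within WT, 3 of 43 genes were called, all lower in late polysomes (Olfr1442, Olfr1450 and Olfr1500), where 54.8% of all genes tested were called and 27.7% were lower. Within cKO, 6 of 43 were called, all lower (Olfr1428, Olfr1442, Olfr1447, Olfr1448, Olfr1458 and Olfr1467), where 58.1% of all genes were called and 29.2% were lower. Voom on inferred reads called 7 genes in WT, 8 in cKO and 12 over both genotypes, beside 58.2%, 58.3% and 70.1% of all genes. The median change was -0.12 in WT and -0.30 in cKO, with medians per lysate of -0.05 and -0.22 in the WT lysates and of -0.30 and -0.28 in the cKO lysates. The difference of the changes between genotypes, tested as an interaction, passed for 0 of 43 genes by limma and 0 by voom, where 0.00621% and 0.0% of all genes were called. At an unadjusted p under 0.05 there were 3 genes by limma (6.98%, beside 2.85% of all genes) and 2 by voom (4.65%, beside 2.47%). The largest interaction values were 1.37 for Olfr1450 (SE 0.43, unadjusted p = 0.0122) and -0.98 for Olfr1458 (SE 0.36, unadjusted p = 0.0241), both with adjusted p = 1.0 by limma. Olfr1450 had TPM of 3.37 and 1.92 in WT early against 1.21 and 0.937 in late libraries, with cKO at 0.645 and 1.16 in early and 2.23 and 1.52 in late libraries, from 3 to 16 reads each. Olfr1450 and Olfr1458 are named after their values were seen. Of the 2 genes with a mean scaled TPM of at least 5, Olfr1440 had an interaction of -0.39 and Olfr1420 of -0.03, both with adjusted p = 1.0.

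The call counts depended on single libraries and on pairing. Pairing early with late by lysate gave 8 calls over both genotypes, and Olfr1426 (adjusted p = 0.0563), Olfr1444 (0.0734) and Olfr1500 (0.0781) no longer passed, nor did Olfr1450 within WT (0.0568) or Olfr1467 within cKO (0.0665). Leaving out cKO early replicate 2 left 4 calls, WT early replicate 2 left 5, WT late replicate 2 left 6 and cKO early replicate 1 left 7. Olfr1442, Olfr1447, Olfr1448 and Olfr1458 passed in all 16 alternatives that tested them.

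Other clusters had similar values in this comparison. The share called over both genotypes was 25.6% here, 26.3% of the 76 genes tested from Olfr829 to Olfr986, 26.0% of 146 from Olfr987 to Olfr1318 and 28.6% of 781 other Olfr genes. Their median changes were -0.20, -0.19 and -0.22, beside -0.17 here. Of the 18 genes for odorant signalling and receptor export, all tested, 11 were higher and 5 lower in late polysomes, with a median of 0.38. Adcy3 rose by 1.58 and Rtp1 by 0.48, while the G protein subunit Gng13 changed by -1.73. Of 15 regulators of receptor choice, 7 were higher and 5 lower, with a median of -0.03.

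The genotypes were compared to ask how these receptor transcripts in polysomes differ when Mex3a, an RNA-binding protein gene, is deleted. No gene of the cluster passed the test by limma, and on log2(scaled TPM + 1) Olfr1443 had the largest difference of the 43. All 8 libraries are bulk RNA from polysomes. Fewer neurons expressing a receptor, less receptor RNA per neuron and less of that RNA on polysomes cannot be told apart between genotypes. The targeted gene itself was at 93.2 to 115.6 TPM in WT and 11.1 to 19.8 TPM in cKO libraries, with a change of -2.67 on lysate means (adjusted p = 0.0227 by limma). The genotype tag of WT early replicate 2 is that of the cKO mice, whereas its title says WT. Its Mex3a level of 115.6 TPM lay with the WT libraries, and it was grouped by its title.

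By limma, 0 of 43 genes were called in early polysomes, 0 in late ones and 0 when lysate means were compared (2 against 2 lysates), where 0.0435%, 0.0124% and 0.00621% of all genes tested were called. At an unadjusted p under 0.05 there were 4, 6 and 6 genes, which is 9.3%, 14% and 14% of those tested, beside 6.65%, 9.36% and 11.3% of all genes. All 6 on lysate means were lower in cKO, where 5.24% of all genes tested were lower and 6.09% higher at that unadjusted p. Voom on the inferred reads called 0 genes in early, 0 in late and 1 on lysates, where 0.0746%, 0.0932% and 0.36% of all genes were called. The medians over the 43 genes were -0.03, -0.10 and -0.05 by limma, beside 0.005, -0.001 and 0.001 over all genes tested. SEs of single genes on lysate means were 0.14 to 0.29, so that differences of that size were not detectable with 2 lysates per genotype.

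Olfr1443 was the gene called by voom. This MOR202 receptor lies on the plus strand at chr19:12678112-12683851 (GENCODE M21, GRCm38). Its TPM was 3.85 and 5.12 in WT early against 3.12 and 4.59 in late libraries, with cKO at 0.958 and 1.19 in early and 1.18 and 0.929 in late libraries. All 4 cKO libraries were below all 4 WT libraries, the only such gene of the 43, where 2.28% of all genes tested separated in either direction and 1.28% with cKO lower. The reads behind these values were 58 to 108 per WT library and 11 to 23 per cKO library.

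In scaled TPM, Olfr1443 averaged 4.54 ± 0.952 in WT against 1.13 ± 0.193 in cKO for early polysomes, and 3.62 ± 0.941 against 1.02 ± 0.199 for late polysomes (SD, n = 2). The change was -1.37 in early (SE 0.25, adjusted p = 0.230), -1.18 in late (SE 0.25, adjusted p = 0.322) and -1.28 on lysate means (SE 0.20, adjusted p = 0.210 by limma). Voom gave -1.89 on lysates with adjusted p = 0.0387, and adjusted p = 0.0512 in early and 0.208 in late polysomes. Without WT early replicate 2, the library whose tag disagrees with its title, the change on lysate means was -1.22 (adjusted p = 0.478 by limma). The late to early change of Olfr1443 over both genotypes was -0.17 (SE 0.18). Its GENCODE model overlaps Gm49772 on the same strand, which is not a row of the table, so reads shared with it cannot be told apart.

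Olfr1442 ends 2.9 kb before Olfr1443 by the RefSeq models, on the same strand. It too was lower in cKO, by the TPM values given above, with a change of -0.57 on lysate means (SE 0.17, adjusted p = 0.374 by limma), and it did not pass by voom. WT late and cKO early libraries of Olfr1442 overlapped. Olfr1447, 1072.8 kb from the start of the cluster against 850.1 kb for Olfr1443, changed by -0.54 (SE 0.16, adjusted p = 0.374). Olfr1465, another MOR202 gene, changed by -0.69 on lysate means (SE 0.25, adjusted p = 0.409) and by -1.17 in late polysomes (SE 0.34, adjusted p = 0.390 by limma), close to the -1.18 of Olfr1443. In late polysomes by voom, Olfr1465 at -2.60 (adjusted p = 0.426) and Olfr1474 at -1.80 (adjusted p = 0.602) were past the -1.76 of Olfr1443. In late libraries Olfr1465 had 7 and 10 reads in WT against 0 and 2 reads in cKO. Olfr1442, Olfr1447, Olfr1465 and, in this comparison, Olfr1474 are named after their values were seen. The next gene after Olfr1443, Olfr1444, lies 177.9 kb further on.

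The 2 genes with a mean scaled TPM of at least 5 had higher means in cKO. Olfr1420 had TPM of 4.34 and 5.91 in WT early against 2.57 and 4.39 in late libraries, with cKO at 6.64 and 7.27 in early and 5.23 and 4.26 in late libraries. Its groups overlapped in late and not in early polysomes, and its change on lysate means was 0.43 (SE 0.19, adjusted p = 0.466 by limma), 0.70 and 0.15 for the pairs of lysates with the same number. Olfr1440, with the values given above, changed by 0.43 in early polysomes, 0.04 in late polysomes and 0.23 over lysate means (SE 0.15, adjusted p = 0.594 by limma).

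**Figure D3:**
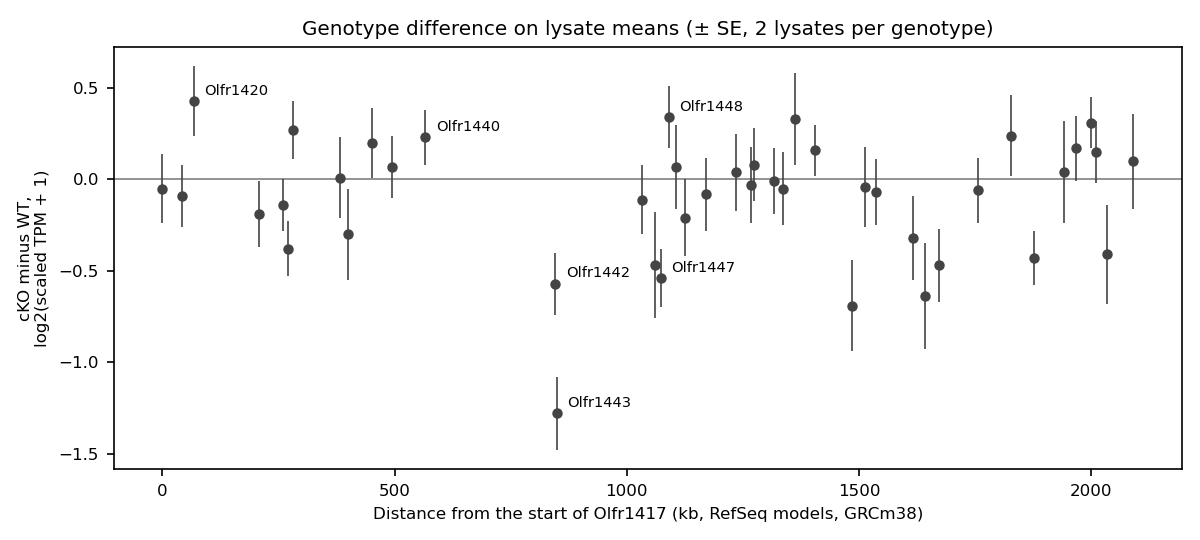
Difference between cKO and WT in log2(scaled TPM + 1) on lysate means, with SE bars from limma, for the 43 genes tested, against distance from the start of Olfr1417 in kb. Olfr1443 stands lowest at -1.28, its neighbour Olfr1442 is at -0.57, and the other genes lie between -0.69 and 0.43.

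**Figure D4:**
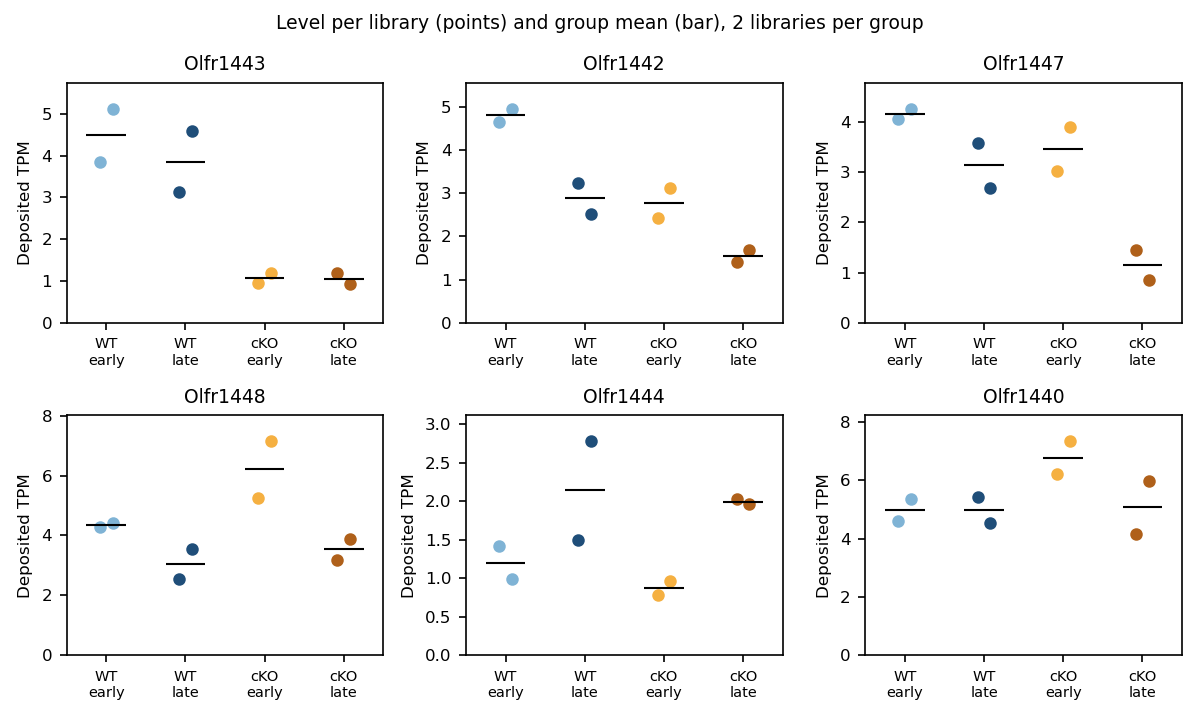
Deposited TPM per library (points) with group means (bars) for 6 genes, each with its own axis from 0. Olfr1443 reaches 1.19 TPM at most in cKO libraries and 3.12 TPM at least in WT libraries, Olfr1442 and Olfr1447 are lowest in cKO late, Olfr1448 is lower in late than in early libraries, and Olfr1444 is higher in late libraries of cKO.

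Genes that act with the receptors showed no call by genotype. By limma, 0 of 18 signalling and export genes and 0 of 15 regulators of receptor choice passed in any of the 3 genotype comparisons. Of all genes tested, 0.0435% were called in early polysomes, 0.0124% in late ones and 0.00621% on lysate means. The medians of these lists, in that order, were -0.06 and -0.04 on lysate means. Markers of mature sensory neurons had 0 of 7 calls and a median of -0.10. Marker sums in this paragraph are of TPM as deposited, without scaling. For the mature markers they overlapped in early polysomes, at 10052 to 12216 TPM in WT and 10411 to 10802 TPM in cKO. In late ones they were 7892 to 8419 TPM in WT and 6885 to 7622 TPM in cKO libraries. That gap in late polysomes does not hold on scaled TPM. Scaling divides WT late replicate 1 by 1.06 and cKO late replicate 1 by 1.02. Markers of immature neurons also had 0 of 5 calls, with sums of 2144 to 2185 TPM in WT early against 1913 to 1955 TPM in cKO early, and of 2746 to 2900 TPM in WT late against 2408 to 2501 TPM in cKO late libraries. The immature sums did not overlap between genotypes. The median change of these 5 markers on lysate means was -0.18, from -0.22 for Gap43 to 0.07 for Gng8. Sums of 4 respiratory and gland markers were higher in cKO. In early polysomes they were 9256 to 9325 TPM in WT against 10131 to 11206 TPM in cKO. In late ones they were 9069 to 10177 TPM in WT against 11871 to 11999 TPM in cKO. By limma, 0 of these 4 were called, with a median of 0.14 on lysate means. In early polysomes Scgb1c1 changed by 0.46, Foxj1 by 0.09, Muc5b by -0.06 and Bpifa1 by -0.20. Sustentacular sums overlapped in early polysomes, and in late ones were 10735 to 11127 TPM in WT against 11874 to 12409 TPM in cKO. Of those 5 markers, 0 were called, with a median of -0.01 on lysate means. The part of these differences in the receptor values was not tested.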

How the data were processed

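RNA from early and late polysomes of WT and cKO main olfactory epithelium was measured in 8 libraries. The deposited values are TPM (transcripts per 1000000), 1 table of 21765 symbols made by the authors, and each library sums to 1000000. The submitters' processing notes name FastQC, cutadapt, STAR, DESeq2 and mm10, with no roles or versions. The annotation and the counting of multiply mapped reads are not given in the sources used here. Groups and replicate numbers came from sample titles. The Cre line is not reported here. Every sample column was used.

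Median-ratio scaling used factors of 0.94 to 1.07. Limma 3.58.1 in R 4.3.3 was run on log2(scaled TPM + 1), with empirical Bayes moderation, a mean-variance trend and 4 groups fitted together. Tests were two-sided, on the 16097 genes whose deposited TPM averaged 1 or more, with Benjamini-Hochberg adjustment over all of them and a threshold of 0.05. Differences on this scale understate the change of low genes. A further genotype test took 1 mean per lysate, because the early and late library of a lysate are not independent. Whole reads were inferred from the steps between a gene's TPM values (100% of 19783 genes above 0 in at least 2 libraries, within 0.001 reads), gave depth, and were tested with voom as an alternative. Intervals and SEs cover these libraries only. Scripts were tested on simulated data.

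Early and late libraries with the same genotype and number share a lysate by name, so pairing by lysate was an alternative fit. After group means were removed, correlations of paired libraries over genes were 0.0863 (WT) and 0.0502 (cKO).

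Genes were named by these rules: the 10 highest mean levels; up to 5 rising and 5 falling genes past the threshold with the largest change in late against early polysomes, with a mean scaled TPM of at least 1; genes past the threshold by genotype or interaction, and those of extreme change with a mean scaled TPM of at least 5; and the 3 most identical pairs. Others are said to be named after their values were seen. The members and lists were chosen with earlier results of these data known. Identity was computed on coding nucleotides from GENCODE M21 with Biopython 1.88, since no proteins were used, and families came from MOR synonyms in RefSeq; both were chosen after the data were seen. RefSeq held 59 of the 60 symbols, and Olfr1433 was matched by a synonym.

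Alternatives were pseudocounts of 0.1 and 0.5, no filter, a filter at a mean of 5 TPM, unscaled TPM, quantile normalization, no trend, only the 4 libraries compared, each library left out, replicate blocks and voom. Figures were drawn with matplotlib 3.10.9.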

Additional observations from a re-analysis of the deposited data

How the results depend on the processing

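By limma, 0 genes of the cluster were called by genotype in early polysomes, late polysomes or on lysate means, and 0 in the interaction, under every alternative run on TPM, replicate blocks by number and by lysate included; voom on inferred reads gave 1 call on lysates and 0 in the other 3 comparisons. For late against early over both genotypes, the 11 calls became 4 to 10 when 1 library was left out, 8 with the replicate block by lysate, 12 with no filter, 12 with voom, 14 with no mean-variance trend and 1 with a filter at 5 TPM, where only 2 genes were tested. In WT, the 3 calls became 1 to 4 when 1 library was left out (1 without WT early replicate 1 and 1 without WT early replicate 2), 1 with quantile normalization, 5 with no mean-variance trend, 7 with voom and 0 with a filter at 5 TPM. In cKO, the 6 calls became 2 to 6 when 1 library was left out (2 without cKO early replicate 2), 3 with TPM as deposited, 9 with no mean-variance trend and 0 with a filter at 5 TPM. The replicate block by lysate gave 3 calls in WT and 7 in cKO, not all of them the genes called without it. The replicate block by number changed no call by genotype; WT and cKO libraries of the same number, which nothing in the labels pairs, had correlations of deviations of 0.332 in early and 0.143 in late polysomes. Quantile normalization moved the median change in late against early over both genotypes from -0.17 to -0.01. Olfr1440 changed sign in cKO against WT in late polysomes when 1 library was left out (-0.16 to 0.23, with -0.08 without WT late replicate 2 and -0.16 without cKO late replicate 2). The interaction of Olfr1420, -0.03, changed sign with a pseudocount of 0.1 (0.01), with voom (0.03) and when 1 library was left out (-0.31 to 0.26). The cause of these changes was not tested, apart from the number of genes tested or libraries left. Olfr1443 stayed negative in all 3 genotype comparisons under every alternative that tested it (17 in early polysomes, 17 in late ones and 16 on lysate means, the filter at 5 TPM not among them), from -0.97 to -1.98. The share of Olfr TPM held by the cluster was 4.05% with pseudogene symbols in the total and 4.04% without Olfr1440. Where a group was left with 1 library, that library was assumed to vary like the other groups. Depth limits single genes: 3 to 1403 inferred reads per gene over 8 libraries.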

Other observations

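Symbols with a pseudogene suffix in the same number range, which the rule left out, had 2 rows in the table. Olfr1452-ps1 was at 0 to 0.511 TPM per library with a mean of 0.207 TPM, and Olfr1503-ps1 was listed at 0 in every library. Olfr1477 and Olfr1484 overlap pseudogene models on the same strand in GENCODE M21, and Olfr1489 overlaps Gm24124 on the other strand.

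Across the 60 genes, mean TPM ranked with transcript length at a Spearman rho of 0.447, a description across genes of the same libraries. Lengths were those implied by the TPM steps, or that of GENCODE M21 for Olfr1475. Across the 43 genes tested, the late minus early change ranked with implied length at a rho of 0.0694.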
